A study of Mus musculus with 12 samples.

Results

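The nuclear genes of respiratory complexes II to V were examined in mouse embryonic fibroblasts labelled TAZKo or wild type (WT), kept in normoxia or subjected to hypoxia. Genes were taken by symbol: protein-coding genes whose name begins with Sdha to Sdhd, Sdhaf, Uqcr, Atp5, or Cox followed by a digit. The Cox4i, Cox6a and Cox7a genes (7 symbols in the tables) were left out by the same rule. It gave 53 of the 48709 gene identifiers. Of these, 8 belong to complex II (4 subunits and 4 assembly factors), 8 to complex III, 20 to complex IV (11 subunits and 9 assembly factors) and 17 to complex V.

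RNA was sequenced from 12 samples of embryonic fibroblasts (MEFs) of the C57BL/6 strain, 3 in each of 4 groups: WT in normoxia, TAZKo in normoxia, WT after 24 hours of hypoxia, and TAZKo after 24 hours of hypoxia. All groups were grown in DMEM with fetal bovine serum, and the WT cells are described as isogenic with the cells labelled as lacking tafazzin. The oxygen level, the way the TAZKo cells were made, the number of lines or clones and the meaning of the sample numbers 1 to 3 are not given in the sources used here. Nothing states that the samples of a group came from separate cultures, so p-values measure the spread between these samples, which may be technical. The design asks how cells labelled as lacking tafazzin, the enzyme that remodels the inner membrane lipid cardiolipin, differ from WT cells in each oxygen condition and how each genotype differs between conditions.

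Complex II, succinate dehydrogenase, passes electrons from succinate to ubiquinone and is built from nuclear-encoded proteins alone. Complex III passes electrons from ubiquinol to cytochrome c, complex IV passes them from cytochrome c to oxygen, and complex V, the ATP synthase, uses the proton gradient across the inner membrane to make ATP. Complexes III, IV and V combine nuclear subunits with subunits encoded by mitochondrial DNA, and all of them sit in a membrane rich in cardiolipin. The transcription factors NRF1, GABP (of the ETS family) and YY1 are known to bind the promoters of many of these nuclear genes.

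The deposited values are read counts per gene. Levels are given as CPM, counts relative to the library total and scaled between libraries by the trimmed mean of M values, and as CPM per kilobase of the principal transcript (RPKM) where genes are compared with each other. Total counts ran from 21039451 to 31204510 per library, so that 3 counts corresponded to 0.0927 to 0.15 CPM. WT normoxia sample 1 stood apart, with 0.921% of its counts from mitochondrial genes against 1.58% and 1.66% in the other WT normoxia samples, and values that moved by more than 1.5 times or lost their call without it are also given without it. Taz, the gene for tafazzin, was not reduced in the libraries labelled TAZKo. It had 38, 33.3 and 32.7 CPM in WT normoxia and 45.8, 39.8 and 41 CPM in TAZKo normoxia (log2 difference 0.29, SE 0.08, edgeR quasi-likelihood adjusted p = 0.0139). In hypoxia it had 25.5, 26.4 and 23.5 CPM in WT and 33.6, 32.8 and 35.1 CPM in TAZKo (log2 difference 0.43, SE 0.08, adjusted p = 0.00112), so the groups are called by their labels throughout. Of the 9 fibroblast markers, which summed to 10376 to 13259 CPM, 8 were above 3 counts in all 12 libraries. Thy1 was above 3 counts in 8 of the 12, at up to 0.291 CPM, and Col1a2 reached at most 5.93 CPM. Single markers shifted in opposite directions beneath the sum. Col1a1 averaged 2835 CPM in WT and 1153 in TAZKo normoxia, and Pdgfrb 49.6 and 104. Vim averaged 1279.9 CPM in WT normoxia and 2947 in WT hypoxia, and Dcn 363 and 204. The part of these shifts in the results below was not tested.

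Promoter windows are shown first, as the sequence next to the start of these genes, and were searched for the letters of the factors named above. Whether the motifs bear on the changes described below was not tested. RefSeq windows of 250 bases before to 50 bases after the transcription start (GRCm38.p6) were matched by symbol for 43 of the 53 genes. The ETS letters CCGGAAG, on either strand, were present in 18 of the 43 windows (41.9%) and in 8.86% of all 32851 windows. NRF1 letters TGCGCA occurred in 9 of 43 (20.9%, against 7.76% of all windows) and YY1 letters AAGATGG in 5 of 43 (11.6% against 6.34%). At least 1 of these 3 motifs was found in 26 of the 43 windows (60.5%), compared with 20.4% of all windows. The hypoxia response element cores ACGTG and GCGTG were found in 12 of 43 (27.9% against 19.6%) and 22 of 43 (51.2% against 32.4%), and TATAAA in 5 of 43 (11.6% against 13.6%). Adjacent matches to CCGGAAG and AAGATGG can share letters. A match describes the letters of a window and not a bound site. Below are 6 windows, each trimmed to 200 bases, with 170 bases before the start and 30 from it, on the strand of the gene. They were picked from windows that hold the ETS letters, which 14 of the 30 genes with a window that fell in WT hypoxia and 3 of the 9 uncalled ones do. They belong to the complex II assembly factor that rose in hypoxia (Sdhaf2) and to 5 genes of complexes II to V that fell in WT cells. Capitals mark CCGGAAG or its reverse complement CTTCCGG, and in Sdhd also TGCGCA.
Sdhaf2, chr19:10525180-10525379, minus strand: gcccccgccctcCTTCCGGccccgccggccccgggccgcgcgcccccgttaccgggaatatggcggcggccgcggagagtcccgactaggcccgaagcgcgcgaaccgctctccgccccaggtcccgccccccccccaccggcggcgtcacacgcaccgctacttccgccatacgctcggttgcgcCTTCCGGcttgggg
Sdhb, chr4:140961101-140961300, plus strand: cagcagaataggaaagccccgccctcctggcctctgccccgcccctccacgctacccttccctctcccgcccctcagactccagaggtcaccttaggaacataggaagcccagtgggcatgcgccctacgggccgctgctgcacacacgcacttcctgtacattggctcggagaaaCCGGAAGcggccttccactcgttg
Sdhd, chr9:50603820-50604019, minus strand: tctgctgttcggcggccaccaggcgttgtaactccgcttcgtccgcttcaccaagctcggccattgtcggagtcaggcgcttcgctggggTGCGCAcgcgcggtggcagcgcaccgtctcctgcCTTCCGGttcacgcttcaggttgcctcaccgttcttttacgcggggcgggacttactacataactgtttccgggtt
Uqcrh, chr4:116075041-116075240, minus strand: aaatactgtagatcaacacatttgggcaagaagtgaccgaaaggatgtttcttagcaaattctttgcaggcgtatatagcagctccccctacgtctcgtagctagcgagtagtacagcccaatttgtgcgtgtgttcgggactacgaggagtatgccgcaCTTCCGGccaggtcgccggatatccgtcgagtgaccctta
Cox8a, chr19:7217587-7217786, minus strand: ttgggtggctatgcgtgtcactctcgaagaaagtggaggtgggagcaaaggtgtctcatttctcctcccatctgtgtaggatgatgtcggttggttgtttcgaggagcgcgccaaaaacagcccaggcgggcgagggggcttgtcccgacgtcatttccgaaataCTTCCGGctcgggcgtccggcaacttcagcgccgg
Atp5e, chr2:174464072-174464271, minus strand: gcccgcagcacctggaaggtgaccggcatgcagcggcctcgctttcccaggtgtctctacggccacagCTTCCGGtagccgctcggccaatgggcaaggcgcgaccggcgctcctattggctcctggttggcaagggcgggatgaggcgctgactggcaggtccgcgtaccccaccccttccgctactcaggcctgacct

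The RefSeq start of Sdhaf2 lies 933 bases from its start in GENCODE M21, and the starts of the other 5 lie within 68 bases of theirs. Sdhaf2 holds the ETS letters at 2 places in the stretch shown, and each of the other windows holds them once there.

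Per length, complex V held the most and the assembly factors the fewest transcripts. Atp5b, the catalytic beta subunit of the F1 head of the ATP synthase, was highest at 1054 ± 84.6 RPKM in WT normoxia (SD, n = 3) and 987 RPKM over all 12 libraries. It was followed over all libraries by Atp5g3 (555 RPKM), a gene for the c subunit of the membrane ring, Atp5a1 (423 RPKM), the F1 alpha subunit, and Cox8a (389 RPKM), a small subunit of complex IV. Cox8a in WT normoxia (515 ± 75.8 RPKM, SD, n = 3) and Atp5a1 (536 ± 36.9) did not differ beyond their spread. The 3 genes that encode the same c subunit protein differed widely, with 5.58 RPKM for Atp5g2 and 4.63 RPKM for Atp5g1 beside 555 RPKM for Atp5g3. The principal transcript used was 731 bases long for Atp5g2, 4715 for Atp5g1 and 723 for Atp5g3. Before division by length they had 4.57, 24.8 and 482 CPM in WT normoxia, so Atp5g1 stood above Atp5g2 there. Order and gaps depend on the length used. Per kilobase of all exons of a gene, Atp5b had 446, Cox8a 345, Atp5a1 333 and Atp5g3 184 over all libraries. On that length Atp5g1 had 4.44 and Atp5g2 2.44. Within complex II the subunits stood at 122 (Sdhd), 119 (Sdhb), 96.2 (Sdha) and 39.6 RPKM (Sdhc), and the assembly factors at 20 (Sdhaf2), 10.9 (Sdhaf4), 1.07 (Sdhaf1) and 1.02 RPKM (Sdhaf3). Complex III ran from 219 RPKM for Uqcr10 and 217 for Uqcrh to 38.1 for Uqcrb, and the tested subunits of complex IV from 389 (Cox8a) to 11.2 RPKM (Cox7c). Of the complex IV assembly factors, Cox14 was highest at 90.5 RPKM and Cox20 lowest at 0.892.

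**Figure D1:**
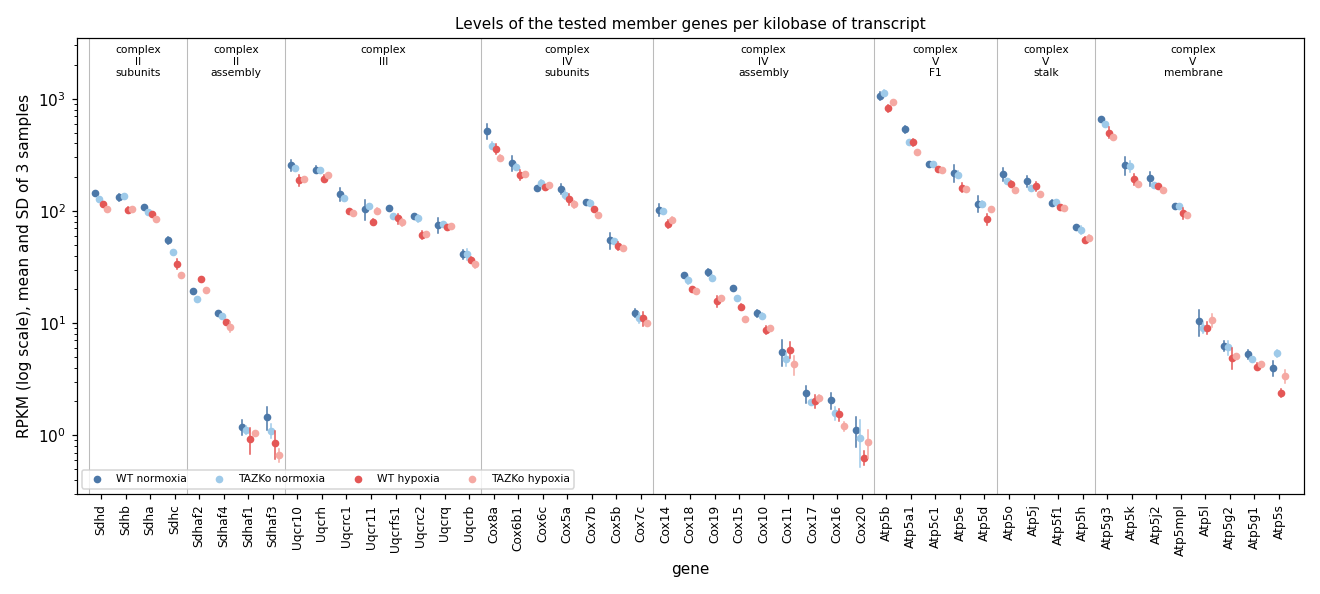
Level of each of the 49 tested genes in RPKM (log scale, mean and SD of 3 samples) in the 4 groups, by role; genes are ordered by level within a role. Atp5b is highest (1054 RPKM in WT normoxia), Cox20 and Sdhaf3 are among the lowest, and the assembly factors of complexes II and IV lie mostly below the subunits of the same complex.

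Some of these genes share sequence with others, and the treatment of reads matching several genes is not given in the sources used here. Cox16 shared 88.7% of its 50-base words with Gm20498, an annotated gene on the same strand, Atp5l 68.5%, Atp5h 47.9%, Uqcrb 43.2%, Atp5o 35.5%, Cox7c 27.9%, Cox5b 25.9% and Atp5f1 23.2% with other annotated genes. Cox20, Sdhaf1 and Cox11 lie with 91.1%, 69.6% and 48.3% of their exon bases opposite exons of another gene, and no source used here says whether counting used the strand. Values of these 11 genes are therefore uncertain. The tissue-restricted isoform genes Cox6b2, Cox7b2, Cox8b and Cox8c were at or below 0.104 CPM in every library, at or under the worth of 3 counts, and were removed by the filter on low counts. Cox8c had no count in any library. The remaining 49 genes were tested.

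In hypoxia the transcripts of complexes II to V fell in both genotypes. In WT cells 35 of the 49 tested genes were lower after hypoxia and 1 was higher, where 25% and 26% of all 14408 tested genes were called lower and higher (edgeR quasi-likelihood test, Benjamini-Hochberg adjusted p under 0.05). In the libraries labelled TAZKo 30 were lower and 1 higher, where 21.6% and 22.2% of all tested genes were called. The median log2 change of the 49 genes was -0.36 in WT and -0.25 in TAZKo, beside 0.01 and -0.01 over all genes, and 46 of the 49 estimates were negative in each genotype. The single gene that rose was Sdhaf2 in both. In RNA from whole cultures, fewer cells of a type and less RNA per cell cannot be told apart.

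The share of all counts that came from the 53 genes was 0.949%, 0.83% and 0.817% in WT normoxia samples 1 to 3 and 0.67%, 0.634% and 0.596% in WT hypoxia. It was 0.853%, 0.8% and 0.786% in TAZKo normoxia and 0.641%, 0.622% and 0.616% in TAZKo hypoxia. Every hypoxia library lay below every normoxia library. Sample 1 had the highest share of its group in all 4 groups, and all samples numbered 1 came from lane 4, according to the names of the deposited tables. Samples 2 came from lane 4 in normoxia and lane 5 in hypoxia and samples 3 from lane 5, so lane is partly tied to condition. With lane as a covariate 32 genes were lower and 1 higher in WT, and 28 lower and 1 higher in TAZKo. Without WT normoxia sample 1, 34 genes were lower and 1 higher in WT (median -0.29), and 37 lower and 1 higher in TAZKo.

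The typical size of the change was modest. Only 8 of the 35 decreases in WT and 6 of the 30 in TAZKo reached a log2 change of 0.5. The samples of the conditions did not overlap, with hypoxia below, for 34 genes in WT and 39 in TAZKo, where 26.5% and 30.9% of all tested genes were separated in this way. Of the 35 genes lower in WT, 28 (80%) were among the 30 lower in TAZKo (93.3% of those). The same overlap over all tested genes is not given here, so these shares stand without a background. Across the 49 genes the 2 sets of log2 changes, which share no sample, had a Pearson r of 0.73 and a Spearman rho of 0.70, beside 0.86 and 0.81 across all tested genes. Genes are not independent replicates, and these values are a description.

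**Figure D2:**
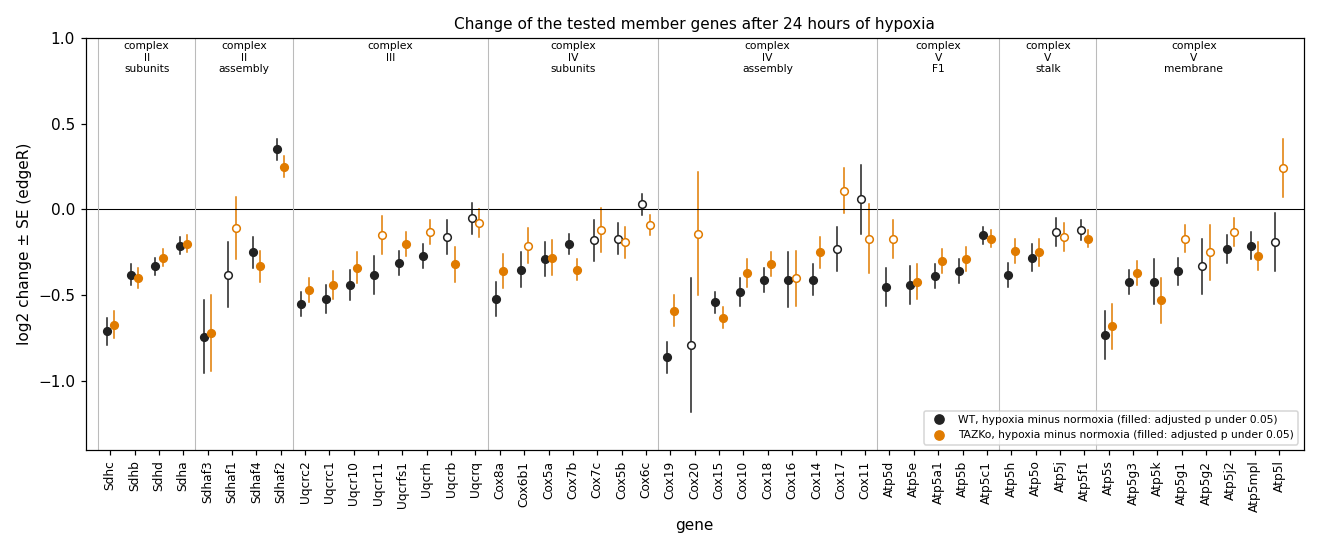
Log2 change after 24 hours of hypoxia (± SE, edgeR) of the 49 tested genes in WT (black) and TAZKo (orange), by role and ordered by the WT change; filled symbols passed an adjusted p of 0.05. Nearly all points lie below 0, Sdhaf2 lies above it in both genotypes, and Cox19 in WT is the lowest of the filled points.

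All 4 subunits of complex II fell in both genotypes. Sdhc, which encodes one of the membrane anchors of succinate dehydrogenase (ENSMUSG00000058076, chr1:171127165-171150603, minus strand, GRCm38), changed most. It had 189, 165 and 169 CPM in WT normoxia and 119.8, 101 and 99.5 CPM in WT hypoxia. In TAZKo it had 145, 129 and 132 CPM in normoxia and 84, 85.2 and 86.5 CPM in hypoxia. The conditions did not overlap in either genotype. The log2 change was -0.71 in WT (SE 0.08, edgeR's adjusted p = 6.53e-06) and -0.67 in TAZKo (SE 0.08, adjusted p = 1.77e-05). Sdhb, the iron-sulfur subunit (ENSMUSG00000009863, chr4:140961203-140979193, plus strand), went from 164, 146 and 146 to 124, 112 and 115 CPM in WT. The corresponding TAZKo values were 156, 157 and 154 CPM in normoxia and 119, 119 and 117 CPM in hypoxia. Its 2 genotypes overlapped within each condition, and its conditions were separate. The log2 change of Sdhb was -0.38 in WT (SE 0.06, adjusted p = 0.000168) and -0.40 in TAZKo (SE 0.06, adjusted p = 0.000151). Sdhd, the other membrane anchor, changed by -0.33 and -0.28, and Sdha, the flavoprotein with the succinate site, by -0.21 and -0.20, all of them called.

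The assembly factors of complex II went in different directions. Sdhaf2, which is needed to attach flavin to the Sdha protein (ENSMUSG00000024668, chr19:10500534-10526142, minus strand), was the gene that rose. Its levels were 56.4, 60.3 and 56.8 CPM in WT normoxia and 73.1, 75.6 and 72.1 CPM in WT hypoxia. In TAZKo they were 48.7, 51.4 and 46.8 CPM in normoxia and 57.4, 57.7 and 59.7 CPM in hypoxia. Each hypoxia group lay above its normoxia group. Sdhaf2 rose by 0.35 on the log2 scale in WT (SE 0.06, edgeR's adjusted p = 0.000191) and by 0.25 in TAZKo (SE 0.06, adjusted p = 0.0028). In WT the estimate was 0.18 with an adjusted p of 0.104 once offsets for GC content and transcript length were used. Sdhaf3 and Sdhaf4, which help insert iron-sulfur clusters and join the catalytic subunits, fell in both genotypes. Sdhaf3 changed by -0.74 and -0.72 at a level of 2.55 to 7.55 CPM, the TAZKo call being lost without TAZKo normoxia sample 3 or TAZKo hypoxia sample 3. Sdhaf4 changed by -0.25 and -0.33, the WT call being lost without WT normoxia sample 2 or WT hypoxia sample 3. Sdhaf1 was not called, at -0.38 (adjusted p = 0.104) and -0.11 (adjusted p = 0.656).

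For complex III, 6 of 8 genes fell in WT and 5 of 8 in TAZKo, with medians of -0.35 and -0.26. Uqcrc2, a core protein of the complex (ENSMUSG00000030884, chr7:120635176-120659524, plus strand), changed most in both. WT samples gave 172, 167 and 169 CPM in normoxia and 120.4, 121 and 105 CPM in hypoxia. TAZKo samples gave 176, 159.8 and 153 CPM in normoxia and 116, 123 and 115 CPM in hypoxia. All hypoxia samples lay below all normoxia samples. The log2 change was -0.55 in WT (SE 0.07, edgeR's adjusted p = 1.88e-05) and -0.47 in TAZKo (SE 0.07, adjusted p = 0.000118), and 19.7% of the exon bases of Uqcrc2 lie opposite exons of Pdzd9. Its partner core protein gene Uqcrc1 changed by -0.52 and -0.44, the small subunit gene Uqcr10 by -0.44 and -0.34, and Uqcrfs1, for the Rieske iron-sulfur protein, by -0.31 and -0.20, with calls in both genotypes. The TAZKo call of Uqcrfs1 was lost without TAZKo normoxia sample 2 or TAZKo hypoxia sample 3. Uqcr11 and Uqcrh, the latter for the hinge protein, were called in WT alone, at -0.38 and -0.27, against -0.15 and -0.13 in TAZKo. Without WT normoxia sample 1 the WT change of Uqcr11 was -0.21. Uqcrb was called in TAZKo alone (-0.32, against -0.16 in WT), and Uqcrq in neither (-0.05 and -0.08). The tests of the difference between genotypes are given further on.

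Of the tested subunits of complex IV, 4 of 7 were lower in WT and 3 of 7 in TAZKo, with medians of -0.20 and -0.21. Without WT normoxia sample 1, 5 were lower in TAZKo. Cox8a, on chromosome 19 (ENSMUSG00000035885, chr19:7215153-7217616, minus strand), had 331, 259.7 and 259 CPM in WT normoxia and 219, 191 and 181 CPM in WT hypoxia. In TAZKo it had 227, 204 and 201 CPM in normoxia and 177, 158 and 158 CPM in hypoxia. Sample 1 was the highest of every group, and the conditions were separate within each genotype. The log2 change was -0.52 in WT (SE 0.10, edgeR's adjusted p = 0.000699), or -0.40 without WT normoxia sample 1, and -0.36 in TAZKo (SE 0.10, adjusted p = 0.011). Cox5a changed by -0.29 and -0.28 and Cox7b by -0.20 and -0.35, with calls in both genotypes. Cox5a lost its WT call without WT normoxia sample 1 (-0.21, adjusted p = 0.0657) and its TAZKo call without TAZKo normoxia sample 1 or TAZKo hypoxia sample 3. Cox6b1 was called in WT alone (-0.35, or -0.22 without WT normoxia sample 1, against -0.21 in TAZKo). Cox6c stayed uncalled at 0.03 and -0.09 with standard errors of 0.06, and Cox5b and Cox7c were uncalled at estimates from -0.19 to -0.12.

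Among the complex IV assembly factors, 6 of 9 fell in WT and 5 of 9 in TAZKo, with medians of -0.41 and -0.32. Cox19, which takes part in copper delivery to the enzyme (ENSMUSG00000045438, chr5:139336189-139351418, minus strand), showed the largest fall of all 49 genes in WT. Its levels were 75.9, 66.2 and 66.8 CPM in WT normoxia and 43.1, 38.1 and 34.3 CPM in WT hypoxia. The TAZKo levels were 65.1, 57.5 and 62.8 CPM in normoxia and 43.4, 40.1 and 39.9 CPM in hypoxia. Conditions did not overlap, and in hypoxia the genotypes did. Cox19 changed by -0.86 in WT (SE 0.09, edgeR's adjusted p = 2.8e-06) and by -0.59 in TAZKo (SE 0.09, adjusted p = 0.000111). Cox15 and Cox10, the enzymes that make the heme A of cytochrome oxidase, changed by -0.54 and -0.48 in WT and by -0.63 and -0.37 in TAZKo. Cox18, which inserts part of the mitochondrially encoded Co2 protein into the membrane, changed by -0.41 and -0.32, and Cox14 by -0.41 and -0.25, the TAZKo call being lost without TAZKo normoxia sample 1 or TAZKo hypoxia sample 2 or 3. Cox16 was called in WT alone (-0.41, against -0.40 in TAZKo), a call lost without WT normoxia sample 1 or WT hypoxia sample 2 or 3, and Cox20 in neither. Cox11 and Cox17, 2 further genes of copper delivery, were not called, with estimates of 0.06 and -0.23 in WT and -0.17 and 0.11 in TAZKo at levels under 10 CPM.

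The 5 genes of the F1 head of complex V all fell in WT, and 4 of them fell in TAZKo, with medians of -0.39 and -0.29. Atp5a1 (ENSMUSG00000025428, chromosome 18, plus strand) had 1431, 1279 and 1267 CPM in WT normoxia and 1079, 1020.4 and 935 CPM in WT hypoxia. In TAZKo it had 1045, 1009.6 and 987 CPM in normoxia and 826, 852 and 801 CPM in hypoxia. WT in hypoxia therefore overlapped TAZKo in normoxia, while the conditions were separate within each genotype. Atp5a1 changed by -0.39 in WT (SE 0.07, edgeR's adjusted p = 0.000223) and -0.30 in TAZKo (SE 0.07, adjusted p = 0.00236). Atp5b, with 2206, 1949 and 1905 CPM in WT normoxia and 1696, 1572 and 1463 CPM in WT hypoxia, changed by -0.36 (SE 0.07, adjusted p = 0.000921). Its TAZKo values went from 2286, 2183 and 2068 to 1833, 1825 and 1707 CPM, a change of -0.29 (SE 0.07, adjusted p = 0.00551). The conditions of Atp5b were separate in both genotypes. The central stalk genes Atp5e and Atp5c1 changed by -0.44 and -0.15 in WT and -0.42 and -0.17 in TAZKo, and Atp5c1 in WT by -0.24 without WT hypoxia sample 1. Atp5d, for the delta subunit, had the largest F1 change in WT (-0.45, SE 0.11, adjusted p = 0.00314, or -0.31 without WT normoxia sample 1) and was not called in TAZKo (-0.17, adjusted p = 0.217).

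Of the 4 genes of the peripheral stalk of complex V, which holds the head still against the rotor, 2 fell in WT (4 without WT hypoxia sample 1) and 3 in TAZKo. Atp5h, for subunit d, changed by -0.38 in WT (SE 0.07, edgeR's adjusted p = 0.000755) and -0.24 in TAZKo (SE 0.07, adjusted p = 0.0196). Atp5o, for the protein that joins stalk and head, changed by -0.28 (-0.16 without WT normoxia sample 1) and -0.25. Atp5f1 was called in TAZKo alone (-0.17, against -0.12 in WT), and Atp5j in neither (-0.13 and -0.16).

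The membrane part of complex V and the remaining Atp5 genes gave 6 of 8 lower in WT and 4 of 8 in TAZKo. Atp5g3 had 493, 481 and 472 CPM in WT normoxia and 406, 350.0 and 327 CPM in WT hypoxia. In TAZKo it had 454, 422 and 415 CPM in normoxia and 342, 336 and 319 CPM in hypoxia. The conditions were separate in both genotypes. Its log2 change was -0.42 (SE 0.07, edgeR's adjusted p = 0.000313) in WT and -0.37 (SE 0.07, adjusted p = 0.000993) in TAZKo. Atp5k, for subunit e at the dimer interface, changed by -0.42 (SE 0.13, adjusted p = 0.0127, or -0.26 without WT normoxia sample 1) and -0.53 (SE 0.13, adjusted p = 0.00386). Atp5s, for coupling factor B, had the largest changes of this group at -0.73 and -0.68, with levels under 10 CPM. Atp5mpl was called in both genotypes (-0.21 and -0.27), Atp5g1 and Atp5j2 in WT alone, and Atp5l and Atp5g2 in neither. The WT call of Atp5mpl was lost without WT normoxia sample 1 or WT hypoxia sample 2 or 3, and its WT change was -0.36 without WT hypoxia sample 1. The WT change of Atp5j2 was -0.23, or -0.35 without WT normoxia sample 2, and its call was lost without WT normoxia sample 1 (-0.11, adjusted p = 0.108).

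The difference between the hypoxia changes of the 2 genotypes was then tested itself. None of the 49 genes was called in either direction by edgeR, where 0.722% of all tested genes were called higher and 1.71% lower, and DESeq2 called 0 as well. A single gene, Cox19, had an unadjusted p under 0.05 in edgeR (difference 0.27, SE 0.12, unadjusted p = 0.049, adjusted p = 0.314), where 15.8% of all tested genes had one. The median difference was 0.05, with 34 of 49 estimates above 0, beside a median of -0.02 over all genes. For Sdhb the difference was -0.02 (SE 0.09, adjusted p = 0.941), for Uqcrc2 0.09 (SE 0.10, adjusted p = 0.714) and for Atp5a1 0.09 (SE 0.09, adjusted p = 0.669). Genes called in 1 genotype alone, such as Uqcr11 (0.24, SE 0.16, adjusted p = 0.509) and Atp5d (0.28, SE 0.15, adjusted p = 0.409), are thus not shown to differ between genotypes. Neither do these tests show that the genotypes responded alike.

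**Figure D3:**
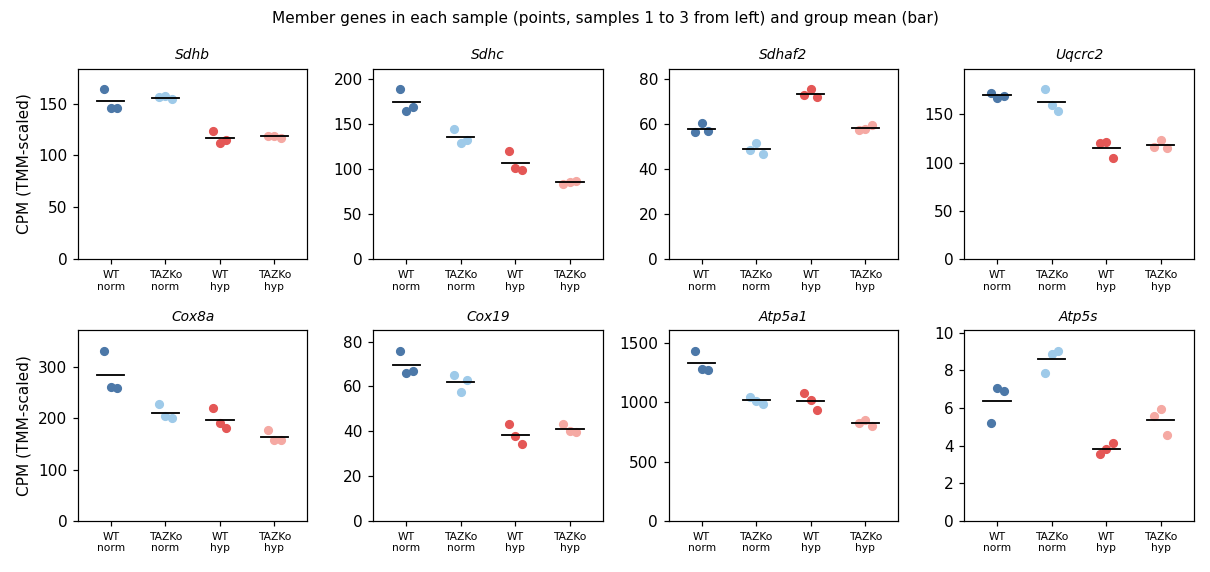
Level in CPM (axes start at 0) of 8 genes in each of the 12 libraries; points are samples 1 to 3 from left to right and bars are group means. Sdhaf2 is higher in hypoxia, the other 7 are lower in hypoxia, the points of Sdhc, Sdhaf2, Cox8a and Atp5a1 lie lower in the TAZKo libraries in both conditions, and those of Atp5s lie higher.

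Between genotypes, in normoxia, 7 of 49 were lower and 1 higher in the libraries labelled TAZKo, where 14.9% and 15.6% of all tested genes were called lower and higher (edgeR quasi-likelihood, Benjamini-Hochberg adjusted p under 0.05). The share of lower genes, 14.3%, was near that of all genes in this fit, which has no replicate block. The lower genes were Sdhc, Sdhd, Sdhaf2, Uqcrfs1, Cox8a, Cox15 and Atp5a1, and the higher gene was Atp5s. The median log2 difference was -0.11 beside 0.01 over all genes, and 40 of 49 estimates were negative. Same-numbered samples deviated together in the normoxia groups, and with the sample number as a replicate block 15 genes were lower and 2 higher. The genes added were Sdha, Sdhaf3, Cox16, Cox19, Atp5g3, Atp5j, Atp5j2 and Atp5o as lower and Cox6c as higher. The number of lower genes was 12 without WT normoxia sample 2 or 3 or WT hypoxia sample 3, and 13 without WT hypoxia sample 1. Without WT normoxia sample 1 it was 10, with 4 higher and a median of -0.04, and the call of Atp5s was lost without that sample and without TAZKo normoxia sample 2 or 3 or TAZKo hypoxia sample 1. Offsets for GC content and transcript length gave 14 lower and 2 higher, and testing with no filter gave 11 lower. The shares of all genes called with the block and in these other settings are not given here, so those counts stand without a background.

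In hypoxia 5 of 49 genes were lower and 2 higher in TAZKo, where 16.9% and 15.8% of all tested genes were called. Sdhc, Sdhaf2, Cox15 and Atp5a1 were lower again (4 of the 7 lower in normoxia, 57.1%, and of the 5 in hypoxia, 80%), joined by Atp5j. Atp5s was higher again, joined by Uqcr11. The median difference was -0.04 beside -0.01 over all genes. The number of lower genes was 11 without WT normoxia sample 1 and 8 without WT hypoxia sample 3. The number of higher genes was 4 without WT normoxia sample 1, 1 without TAZKo normoxia sample 2 or WT hypoxia sample 3, and 0 without WT hypoxia sample 2 or TAZKo hypoxia sample 1 or 2. Offsets for GC content and transcript length gave 9 lower and 4 higher, and the 6 hypoxia samples alone gave 8 lower and 4 higher. Shares of all genes in these settings are likewise not given, nor is the overlap of the normoxia and hypoxia calls over all genes. Across the 49 genes the normoxia and hypoxia differences, which share no sample, had a Pearson r of 0.66 and a Spearman rho of 0.59, beside 0.85 and 0.65 across all tested genes.

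Among the complex II genes, Sdhc in the values given above was lower in every TAZKo library than in any WT library of the same condition. In normoxia it stood at a log2 difference of -0.37 (SE 0.08, edgeR's adjusted p = 0.00312), and in hypoxia at -0.32 (SE 0.08, adjusted p = 0.00692). Sdhd was lower by the same comparison of libraries in both conditions, with -0.19 in normoxia (SE 0.05, adjusted p = 0.0169) and an uncalled -0.14 in hypoxia (adjusted p = 0.0608). Sdhaf2 was lower, at -0.24 (SE 0.06, adjusted p = 0.00601) and -0.34 (SE 0.06, adjusted p = 0.00053). Sdhb did not pass the test, at 0.04 (SE 0.06, adjusted p = 0.698) and 0.02 (SE 0.06, adjusted p = 0.856). Sdha was not called either, though its genotypes did not overlap. It had 309, 313 and 315 CPM in WT normoxia and 283, 293 and 279.9 in TAZKo normoxia. In hypoxia it had 274, 273 and 264 CPM in WT and 253, 248 and 244 in TAZKo. DESeq2 called it lower in both conditions (adjusted p = 0.00674 and 0.0269). With the replicate block edgeR called Sdha lower in normoxia (-0.13, adjusted p = 0.0434).

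In complex III, Uqcrfs1 had 149, 145 and 141 CPM in WT normoxia and 125, 127 and 119.9 CPM in TAZKo normoxia. The genotypes were separate there. The difference was -0.23 (SE 0.07, edgeR's adjusted p = 0.0341), lost without TAZKo normoxia sample 3, and in hypoxia it was an uncalled -0.12. Uqcr11, a small accessory subunit, had 37.5, 35.5 and 33.2 CPM in WT hypoxia and 47, 44.8 and 41.6 CPM in TAZKo hypoxia, with no overlap. It was higher by 0.33 (SE 0.11, adjusted p = 0.0365), a call lost without TAZKo normoxia sample 2, WT hypoxia sample 2 or 3, or TAZKo hypoxia sample 1 or 2, and it differed by an uncalled 0.09 in normoxia. Uqcrc2 was not called, at -0.06 and 0.03 with standard errors of 0.07.

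In complex IV, Cox8a was lower, at -0.43 in normoxia (SE 0.10, edgeR's adjusted p = 0.00564), or -0.30 without WT normoxia sample 1, and at an uncalled -0.26 in hypoxia (adjusted p = 0.0624). Cox15 had 99.7, 100.2 and 93.9 CPM in WT normoxia and 80.5, 78.6 and 80.9 CPM in TAZKo normoxia. In hypoxia it had 63.4, 67.4 and 70.5 CPM in WT and 50.2, 53.8 and 50.9 CPM in TAZKo. The genotypes were separate in both conditions. Cox15 was lower, at -0.29 (SE 0.06, adjusted p = 0.00184) and -0.38 (SE 0.06, adjusted p = 0.000275). In the fit without the replicate block, the other 14 tested genes of complex IV were not called in normoxia, and the other 15 not in hypoxia. With the block, edgeR called Cox16 (-0.38, adjusted p = 0.0377) and Cox19 (-0.17, adjusted p = 0.0463) lower in normoxia. It called Cox6c higher there (0.15, adjusted p = 0.0336).

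In complex V, Atp5a1 was lower, at -0.39 in normoxia (SE 0.07, edgeR's adjusted p = 0.000538) and -0.29 in hypoxia (SE 0.07, adjusted p = 0.00374), with separate genotypes in both. Atp5b, which forms the F1 hexamer with the Atp5a1 product, was not called, at 0.11 (adjusted p = 0.277) and 0.18 (adjusted p = 0.0684). Atp5s, named after its values were seen because its level is under the 10 CPM otherwise asked of named genes, had 5.22, 7.06 and 6.88 CPM in WT normoxia and 7.87, 8.84 and 9.03 CPM in TAZKo normoxia. Its hypoxia values were 3.55, 3.81 and 4.15 CPM in WT and 5.59, 5.95 and 4.57 CPM in TAZKo. Genotypes did not overlap in either condition. It was higher by 0.42 (SE 0.13, adjusted p = 0.0245), or an uncalled 0.30 without WT normoxia sample 1, and 0.47 (SE 0.15, adjusted p = 0.0224), a call lost without WT hypoxia sample 1 or 2 or TAZKo hypoxia sample 1 or 2. Atp5j, for coupling factor 6, was lower in hypoxia (-0.23, SE 0.08, adjusted p = 0.0497), a call lost in 13 of 23 alternatives, among them DESeq2 and leaving out WT hypoxia sample 1 or 2, TAZKo normoxia sample 2 or 3, or any TAZKo hypoxia sample.

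The position of these genes was read beside the genotype differences, since the other tested genes of chromosomes 10, 18 and 19 also differed between the labelled genotypes. Their median log2 difference was 0.32 in normoxia and 0.29 in hypoxia on chromosome 10 (673 genes), -0.22 and -0.28 on chromosome 18 (359 genes), and -0.27 and -0.28 on chromosome 19 (489 genes). The genes studied here that lie on these chromosomes are Atp5b, Atp5d and Uqcr11 (10), Atp5a1 (18), and Cox8a, Cox15 and Sdhaf2 (19). They gave 4 of the 7 lower calls in normoxia, and 3 of the 5 lower calls and 1 of the 2 higher calls in hypoxia. Among the 42 tested genes elsewhere, 3 were lower and 1 higher in normoxia (7.14% and 2.38%), where 14.9% and 15.6% of all tested genes were called. The hypoxia counts were 2 lower and 1 higher (4.76% and 2.38%), where 16.9% and 15.8% of all tested genes were called. Some genes outside the rule that are named further on lie there too. Uqcc3 (-0.38 in normoxia) and Usmg5 (-0.28 in hypoxia) lie on chromosome 19, and Ppargc1b (-0.45 in normoxia) on chromosome 18. The part of the chromosome in any of these genotype differences was not tested. For the hypoxia changes the corresponding medians were 0.03 (chromosome 10), 0.12 (18) and -0.01 (19) in WT and 0.00, 0.04 and -0.01 in TAZKo. Outside the 3 chromosomes 29 of 42 genes (69%) were lower after hypoxia in WT and 26 of 42 (61.9%) in TAZKo. Of all tested genes 25% and 21.6% were called lower.

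**Figure D4:**
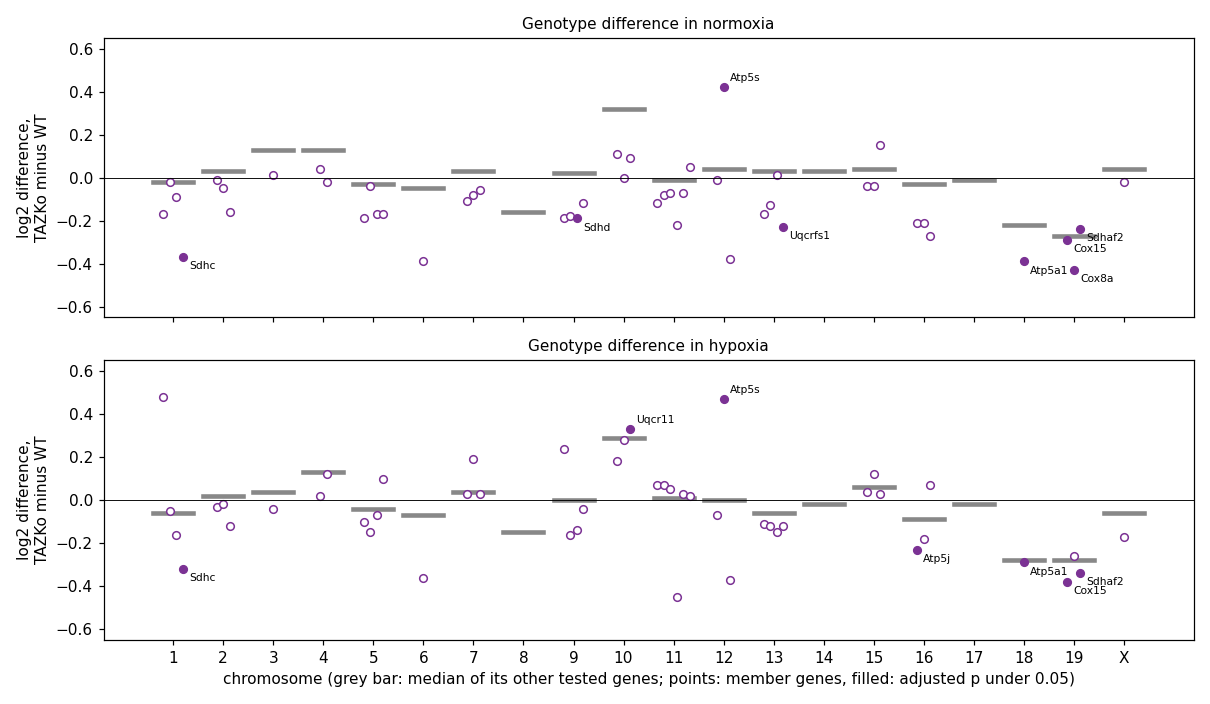
Log2 difference between TAZKo and WT of the 49 tested genes by chromosome, in normoxia (top) and hypoxia (bottom); filled points passed an adjusted p of 0.05 and grey bars are medians of the other tested genes of each chromosome. The bars of chromosomes 18 and 19 lie between -0.22 and -0.28, the points of Atp5a1, Cox8a, Cox15 and Sdhaf2 between -0.24 and -0.43, and the bar of chromosome 10 lies at 0.32 and 0.29.

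Markers of other cell types were summed in the same way as the fibroblast markers. The 4 endothelial markers summed to 14.5 to 21 CPM in WT and 3.84 to 7.45 CPM in TAZKo, mostly Tek and Kdr, with Cdh5 at or below 0.0692 CPM in every library. The 4 muscle markers, mostly Des, summed to 9.01 to 10.1 CPM in TAZKo normoxia and 2.85 to 6.42 CPM elsewhere, with Myod1 at 0 in every library. The 4 leukocyte markers summed to 4.42 to 5.57 CPM in normoxia and 7.99 to 13.8 CPM in hypoxia, with Adgre1 at 0 in every library and Ptprc at 0 in all but 1 group. The 4 epithelial markers, mostly Krt18, summed to 97.9 to 152 CPM, the 3 neural markers, mostly Tubb3, to 22.1 to 61.1 CPM, and the 4 germ and pluripotency markers to 0.875 to 2.48 CPM. Their part in the hypoxia and genotype differences above was not tested.

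Genes of the same pathways outside the rule were counted from lists. Of 35 complex I subunit genes, 25 were lower and 1 higher in WT hypoxia (median -0.32) and 19 lower and 1 higher in TAZKo hypoxia (median -0.27). The lower genes made up 71.4% and 54.3% of this list, beside 71.4% and 61.2% of the tested genes of complexes II to V. The riser was Ndufv3 (1.41 and 1.35). Between genotypes 4 complex I genes were lower and 3 higher in normoxia, and 4 lower and 5 higher in hypoxia. In normoxia these were 11.4% and 8.57% of the list, where 14.9% and 15.6% of all tested genes were called. In hypoxia they were 11.4% and 14.3%, where 16.9% and 15.8% of all tested genes were called. Leaving out each sample gave 4 to 8 lower and 1 to 9 higher in normoxia, the highest counts without WT normoxia sample 3 (lower) and sample 1 (higher), and only 1 higher without TAZKo normoxia sample 2 or 3. In hypoxia it gave 2 to 8 lower, with 8 without WT normoxia sample 1 and 2 without WT hypoxia sample 1 or TAZKo hypoxia sample 1 or 2. The higher complex I genes numbered 1 to 7, with 1 without WT hypoxia sample 2 or 3 and 2 without TAZKo hypoxia sample 2 or 3.

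Of 8 complex III partner and assembly genes, 5 were lower in hypoxia in each genotype and none was higher. The lower genes were 62.5% of the list, where 25% (WT) and 21.6% (TAZKo) of all tested genes were called lower. Lyrm7, which guards the Rieske protein before insertion, changed most, at -1.03 in WT (edgeR's adjusted p = 3.23e-05) and -0.96 in TAZKo (adjusted p = 5.52e-05). Bcs1l, which inserts the Rieske protein, was higher in TAZKo hypoxia than in WT hypoxia by 0.40 (adjusted p = 0.000478), and Uqcc3 was lower in TAZKo normoxia (-0.38, adjusted p = 0.0149), a call lost with the 6 normoxia samples alone and a difference of -0.23 without WT normoxia sample 1.

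Of 14 tested complex IV assembly genes with other names, 8 fell and 1 rose in WT hypoxia, and 4 fell and 1 rose in TAZKo hypoxia. Lower genes were 57.1% and 28.6% of the list, where 25% and 21.6% of all tested genes were called lower. The riser made up 7.14%, where 26% and 22.2% of all tested genes were called higher. Higd1a, a hypoxia-inducible factor that binds complex IV, rose from 21.8, 21.2 and 21.5 to 157, 172 and 183 CPM in WT. In TAZKo it went from 19.1, 20.8 and 19.9 to 174, 162 and 171 CPM. Its log2 changes were 2.99 (SE 0.07, edgeR's adjusted p = 1.97e-12) and 3.08 (SE 0.07, adjusted p = 1.11e-12). Of the exon bases of Higd1a 22.5% lie opposite exons of Gm47112. Coa3, an early complex IV assembly factor, fell most in WT (-0.86, adjusted p = 2.9e-07) and Coa4 in TAZKo (-0.53, adjusted p = 0.00221). Coa5 was higher in TAZKo by 0.34 in hypoxia (adjusted p = 0.00554) and by 0.23 in normoxia (adjusted p = 0.0426), the latter a call lost in 13 of 23 alternatives, among them the omission of any single library except WT normoxia sample 3 (0.13 without WT normoxia sample 1). Coa3 was lower in TAZKo normoxia (-0.21, adjusted p = 0.0341), lost without WT normoxia sample 1 or TAZKo normoxia sample 3.

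Of 6 complex V genes under other names, 2 were lower in WT hypoxia and 3 in TAZKo hypoxia. These were 33.3% and 50% of the list, where 25% and 21.6% of all tested genes were called lower. Atpaf1, a chaperone of the F1 beta subunit, changed most, by -0.53 (edgeR's adjusted p = 0.00166) and -0.39 (adjusted p = 0.0114). Atpif1, the inhibitor of ATP hydrolysis by the synthase, was higher in TAZKo, with 79.1, 61.4 and 62.4 CPM in WT normoxia and 91.3, 83.4 and 97.3 CPM in TAZKo normoxia. In hypoxia Atpif1 had 56.5, 56.2 and 55.6 CPM in WT and 73.6, 72.2 and 78.1 CPM in TAZKo, so the genotypes were separate in both conditions. The differences were 0.42 (SE 0.09, adjusted p = 0.00288) and 0.41 (SE 0.09, adjusted p = 0.0035). Usmg5, a small membrane subunit, was lower in TAZKo hypoxia (-0.28, adjusted p = 0.0412), a call lost in 9 of 23 alternatives, among them leaving out TAZKo normoxia sample 2 or 3, WT hypoxia sample 2 or 3, or any TAZKo hypoxia sample.

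Of the mitochondrially encoded partners of these genes, mt-Co2, mt-Co3 and mt-Atp6 had 0 counts in every library and mt-Atp8 had 0 to 1, so only mt-Cytb (complex III) and mt-Co1 (complex IV) could be tested. The genes mt-Co2, mt-Co3 and mt-Atp6 shared 100%, 99.9% and 99.5% of their 50-base words with other annotated genes. Their 0 counts are therefore not read as absent transcripts. mt-Co1 shared 51.1% of its words with Gm29216, so its values are uncertain. mt-Cytb had 2017, 3257 and 3435 CPM in WT normoxia and 4692, 4856 and 5058 CPM in TAZKo normoxia. WT normoxia sample 1 was the lowest. The difference was 0.75 (SE 0.14, edgeR's adjusted p = 0.00113), or 0.54 without that sample. In TAZKo mt-Cytb fell in hypoxia by 0.52 (SE 0.14, adjusted p = 0.00816), to 3339.9, 3414 and 3444 CPM. WT hypoxia samples had 2811, 2859 and 2677 CPM, not called against WT normoxia with all 12 libraries. mt-Co1 was called in none of the comparisons with all 12 libraries. Without WT normoxia sample 1 both genes were called lower in TAZKo hypoxia against normoxia, and 1 of the 2 was called lower in WT hypoxia. Without that sample 1 of the 2 was also called higher in TAZKo than in WT in hypoxia.

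Among 11 nuclear regulators of these genes, 3 rose and 2 fell in WT hypoxia, and 3 rose and 1 fell in TAZKo hypoxia. Higher genes were 27.3% of the list in each genotype, where 26% (WT) and 22.2% (TAZKo) of all tested genes were called higher. Lower genes were 18.2% in WT and 9.09% in TAZKo, where 25% and 21.6% of all tested genes were called lower. In TAZKo 1 rose without TAZKo normoxia sample 1 or TAZKo hypoxia sample 1 or 2, and 2 fell without TAZKo normoxia sample 1. Ppargc1b, a coactivator of mitochondrial genes, had 17.1, 16.3 and 15 CPM in WT normoxia and 6.15, 4.4 and 4.99 CPM in WT hypoxia. In TAZKo it had 11.7, 11.7 and 11.9 CPM in normoxia and 4.23, 6.12 and 5.09 CPM in hypoxia. The conditions were separate, with log2 changes of -1.64 (SE 0.13, edgeR's adjusted p = 2.7e-07) and -1.18 (SE 0.13, adjusted p = 9.04e-06). Myc rose by 1.63 in WT (adjusted p = 7.61e-08) and was called higher in TAZKo, from 72.4, 74.1 and 64.5 to 135, 143 and 145 CPM (adjusted p = 9.95e-06). Yy1 rose by 0.41 and 0.37, the WT call being lost without WT hypoxia sample 2 and the TAZKo call without TAZKo normoxia sample 1 or TAZKo hypoxia sample 1 or 2. Ppargc1a, a second coactivator at 0.619 to 4.57 CPM, was higher in TAZKo by 1.64 in normoxia (adjusted p = 3.87e-05) and 0.67 in hypoxia (adjusted p = 0.00851), and Ppargc1b was lower in TAZKo normoxia (-0.45, adjusted p = 0.0108). Nrf1 was called higher in hypoxia than in normoxia in TAZKo (0.15, adjusted p = 0.0454), a call lost on leaving out any single library except WT normoxia sample 1, and Gabpa was called in none of the 4 comparisons. Myc was lower in TAZKo hypoxia than in WT hypoxia (-0.34, adjusted p = 0.0303, or -0.22 without WT hypoxia sample 3), a call lost without WT hypoxia sample 2 or 3 or any TAZKo hypoxia sample.

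Read against the promoter windows shown above, the motifs occurred among the lower and the uncalled genes. In WT 18 of the 30 lower genes with a window held an NRF1, ETS or YY1 motif, and 7 of the 9 uncalled genes did. In TAZKo 14 of 24 lower and 11 of 15 uncalled genes held one. Sdhaf2, which rose, held the ETS letters, as did Sdhb, Cox8a and Atp5e, which fell.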

How the data were processed

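Read counts per Ensembl gene were deposited by the authors as 1 table per sample (12 samples, whole numbers, 48709 identifiers). The genome build is mm10, per the submitters' processing notes. The aligner, counting program, strand setting and annotation release are not given in the sources used here. Libraries were made from total RNA with an Illumina TruSeq kit, per the labels' protocols, and no normalization of the counts is recorded. Symbols, positions, exon lengths and GC content came from GENCODE M21 (GRCm38) by identifier (48349 matched, 360 not). The genes and all lists were chosen with earlier results of these data known.

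Counts were filtered with filterByExpr (14408 genes kept), scaled by TMM and fitted with the edgeR 4.0.16 quasi-likelihood model in R 4.3.3, with limma 3.58.1, 12 samples and 1 coefficient per group. P-values were Benjamini-Hochberg adjusted over all genes tested, with a threshold of 0.05. SE is the log2 change divided by the square root of F. Floors of 3 counts cover counting error only, because PCR copies of a molecule were not told apart. No pair of libraries held equal counts for more than 2.23% of the tested genes.

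Named genes were Taz, Sdhb, Uqcrc2, Atp5a1, genes removed by the filter, and, per role or list and comparison, the largest called increase and decrease, where members needed a group mean of 10 CPM or more and samples that did not overlap. Others were named after their values were seen. Other settings tried were 3 scalings (DESeq2 size factors, upper quartile, library size alone), testing with DESeq2 1.42.0, dropping the filter or asking for 5 CPM on average, the replicate block, lane as a covariate, the 6 samples compared, GC and length offsets with and without the block, a log2 change of at least 0.5, and leaving out each sample. Restriction to genes with under 20% shared words and exon overlap was chosen after seeing the data.

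Sample numbers come from the titles, which do not say what they stand for. Correlations of same-numbered deviations from the group means were 0.35, 0.15 and 0.23 between the normoxia groups and 0.37, 0.20 and 0.15 between the WT groups. In those comparisons the samples count as paired. For the genes of complexes II to V, the fit with the replicate block is given where it changed calls. It stands beside the values of the fit without it, which the text otherwise uses. For the lists of other genes, calls with the block are not given here.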

Additional observations from a re-analysis of the deposited data

Results flagged for a closer look

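Coa3, an early assembly factor of complex IV that lies outside the gene rule, was the single gene of all members and lists whose hypoxia change differed between the genotypes by the test of the difference itself. It had 44.4, 42.5 and 39.8 CPM in WT normoxia and 24.9, 23.4 and 21.4 CPM in WT hypoxia. In the libraries labelled TAZKo it had 37.2, 36.4 and 36.3 CPM in normoxia and 28.2, 26.8 and 27.7 CPM in hypoxia. The change was -0.86 in WT and -0.41 in TAZKo, a difference of 0.45 (SE 0.10, edgeR quasi-likelihood adjusted p = 0.027). In this test 0.722% of all tested genes were called higher and 1.71% lower. How the Coa3 difference fares in the other settings is not given here.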

How the results depend on the processing

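The fall in hypoxia kept its direction and its size under all alternatives but 1: the number of lower genes ran from 32 to 42 in WT and from 26 to 38 in TAZKo, and leaving out each sample gave 32 to 38 and 26 to 37, with 1 higher gene each time. With a log2 change of at least 0.5 as well, 8 (WT) and 6 (TAZKo) genes were lower and 0 higher. GC and length offsets left 0 higher genes in WT. Genotype counts moved more. Shares of all tested genes are given for the main fit only, not for these settings. In normoxia (1 higher, 7 lower) they were 2 and 15 with the replicate block, 2 and 14 with GC and length offsets, and 4 and 18 with both. Lane gave 2 higher, the 6 samples alone 0 higher, and no filter 11 lower. Leaving out each sample gave 0 to 4 higher and 6 to 13 lower. In hypoxia (2 higher, 5 lower) the counts were 4 and 10 with the replicate block, 4 and 9 with the offsets, 5 and 14 with both, and 4 and 8 with the 6 samples alone. Lane and no filter gave 4 higher each, and leaving out each sample gave 0 to 4 higher and 4 to 11 lower. With a log2 difference of at least 0.5, 0 genes were called in either condition. The cause of these moves was not tested, other than fewer samples or a stricter rule by construction. The difference between hypoxia changes gave 0 calls among the genes of complexes II to V under every alternative run.

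Same-numbered samples of the hypoxia groups and of the TAZKo groups correlated at -0.02 to 0.12, so they were not counted as paired there. Low correlations do not show that the samples were unpaired. With the replicate block 33 genes were lower in TAZKo hypoxia. The block changed no call of a gene in WT hypoxia.

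Among named values, those near 0 changed sign. For Sdhb the difference between genotypes in hypoxia (0.02) was -0.01 with GC and length offsets, with or without the block. The difference between its hypoxia changes (-0.02) was 0.02 with upper quartile scaling and 0.03 with no filter, and -0.08 to 0.05 over left-out samples. Left-out samples also gave -0.03 to 0.10 for Sdhb in normoxia, -0.02 to 0.05 for Sdhb in hypoxia and -0.04 to 0.06 for Uqcrc2 in hypoxia, between genotypes. Library size alone put the median level of the tested genes in TAZKo hypoxia at 65.1 CPM (67 with TMM) and the median hypoxia change in WT at -0.47, where the median of all genes moved to -0.097. Among the 38 tested genes with little shared or overlapping sequence, 32 were lower in WT hypoxia and 26 in TAZKo hypoxia. Of all tested genes 25% (WT) and 21.6% (TAZKo) were called lower. At this depth Cox6b2, Cox7b2, Cox8b and Cox8c could not be tested.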
